A study of Mus musculus with 8 samples.

Results

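Immunoglobulin variable (V) segments were followed in jejunal mucosa by RNA-seq, as the counts that each germline segment received in each library. The members were all genes whose symbol begins with Ighv (heavy chain), Igkv (kappa light chain) or Iglv (lambda light chain) and whose counts summed over the 8 libraries reached at least 100. Of 348 V segments by symbol among 56980 gene identifiers, 65 met this rule, namely 29 of 185 heavy, 35 of 160 kappa and 1 of 3 lambda segments. The rule used the level over all libraries, so the level of the members is a description and not a finding. A further 160 segments had 1 to 99 counts and 123 had none.

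The libraries came from 4 FFA2 fl/fl control mice (floxed) and 4 littermates labelled Adipoq-F2-KO, in which floxed FFA2, a receptor for short-chain fatty acids, is combined with an Adiponectin-Cre transgene. All mice were male, were housed together from birth, and at 12 weeks of age were moved from chow to a Western diet with 10% fructooligosaccharides for 2 weeks, a fermentable fiber that both genotypes received. The labels give ambient temperature for rearing, and the study's text places the diet period of these mice at thermoneutrality. The adiponectin promoter drives Cre in adipocytes, so the deletion is not designed to act in the mucosal cells that make up most of a scraping. Adipoq itself, the adiponectin gene, had 59 counts in floxed 3, 27 in Adipoq-F2-KO 3, 12 in Adipoq-F2-KO 4 and 0 to 3 elsewhere, so adipocyte RNA was unevenly present, and its part in the results was not tested. Libraries are named by genotype and by the number in their label, and the tests below measure the spread between these mice, 1 library each.

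Each B cell joins 1 heavy V segment to a diversity and a joining segment, and 1 kappa or lambda V segment to a light chain joining segment, and its descendants keep that choice. The gut lamina propria is rich in plasma cells, which secrete mostly immunoglobulin A and carry very large amounts of immunoglobulin mRNA. V segment counts in gut RNA are therefore expected to come largely from plasma cells, which was not tested here, and a large clone of them adds to the counts of its own segments. Allelic choice, joining segments and the junction between them cannot be read from counts per gene.

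Total counts ranged from 6007654 to 21712776 per library, with 3 libraries under 10000000 (floxed 3, Adipoq-F2-KO 3 and Adipoq-F2-KO 4). The 65 members together received 20586 counts, from 816 to 7506 in a library, which sets the precision of every share below. Ffar2, the targeted gene, had 2 to 18 counts per floxed library and 3 to 13 per Adipoq-F2-KO library, which checks nothing about a deletion in adipocytes. The mucosal origin was plain from 12 of 12 enterocyte genes tested, with summed normalized counts (counts scaled between libraries with DESeq2 size factors) of 853552 to 960017. A list of 10 smooth muscle genes, by contrast, summed to 322 to 23994 normalized counts in floxed and to 566 to 8366 in Adipoq-F2-KO mice, highest in floxed 3. The amount of underlying muscle thus differed between scrapings, and its part in the V segment counts was not tested.

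The germline sequences of 7 members are shown because the results turn on them. They are the segment with the highest mean share in each chain (Ighv1-26, Igkv5-39, Iglv1), a near-copy of the first (Ighv1-18), the segments that led both chains in floxed 1 (Ighv14-2, Igkv9-124) and the member with the smallest p between genotypes (Igkv4-53). Each run is the last 300 bases of the germline coding sequence, 5′ to 3′, up to the end of the V segment. Capitals mark the conserved codons TATTACTGT or TATTTCTGT and all that follows, where the third complementarity-determining region (CDR3), the most variable loop of the antibody, begins.
Ighv1-26: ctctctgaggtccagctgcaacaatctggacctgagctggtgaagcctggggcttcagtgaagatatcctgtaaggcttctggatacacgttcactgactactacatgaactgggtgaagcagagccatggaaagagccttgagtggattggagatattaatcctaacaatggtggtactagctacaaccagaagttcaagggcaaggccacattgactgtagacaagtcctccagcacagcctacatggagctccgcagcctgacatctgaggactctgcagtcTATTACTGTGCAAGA
Ighv1-18: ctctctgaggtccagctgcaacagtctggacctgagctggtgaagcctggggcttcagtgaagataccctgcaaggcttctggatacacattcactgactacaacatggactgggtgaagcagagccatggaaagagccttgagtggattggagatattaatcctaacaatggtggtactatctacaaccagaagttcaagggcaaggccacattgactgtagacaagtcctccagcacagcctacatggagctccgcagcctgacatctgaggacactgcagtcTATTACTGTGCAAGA
Ighv14-2: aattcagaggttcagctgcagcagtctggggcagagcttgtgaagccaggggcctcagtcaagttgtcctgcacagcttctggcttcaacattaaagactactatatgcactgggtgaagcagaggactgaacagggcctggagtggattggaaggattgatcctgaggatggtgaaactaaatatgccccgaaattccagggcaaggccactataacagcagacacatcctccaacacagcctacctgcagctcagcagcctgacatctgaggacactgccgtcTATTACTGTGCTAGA
Igkv5-39: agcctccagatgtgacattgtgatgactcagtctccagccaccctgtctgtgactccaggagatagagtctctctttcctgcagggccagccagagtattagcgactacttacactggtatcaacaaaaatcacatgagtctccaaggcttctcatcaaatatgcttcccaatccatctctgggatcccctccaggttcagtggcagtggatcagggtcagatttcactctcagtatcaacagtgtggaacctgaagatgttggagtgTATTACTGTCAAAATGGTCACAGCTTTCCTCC
Igkv9-124: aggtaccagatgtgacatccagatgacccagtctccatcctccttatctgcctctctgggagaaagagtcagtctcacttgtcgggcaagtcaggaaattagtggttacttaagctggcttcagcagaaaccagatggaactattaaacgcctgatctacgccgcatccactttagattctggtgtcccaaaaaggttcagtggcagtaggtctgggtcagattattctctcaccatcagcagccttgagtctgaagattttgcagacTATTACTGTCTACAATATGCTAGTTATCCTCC
Igkv4-53: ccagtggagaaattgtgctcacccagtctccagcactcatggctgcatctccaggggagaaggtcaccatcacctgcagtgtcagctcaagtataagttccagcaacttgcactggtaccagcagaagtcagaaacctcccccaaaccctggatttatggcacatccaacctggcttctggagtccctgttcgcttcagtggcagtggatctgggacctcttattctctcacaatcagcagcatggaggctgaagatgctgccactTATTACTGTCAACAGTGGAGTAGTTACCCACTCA
Iglv1: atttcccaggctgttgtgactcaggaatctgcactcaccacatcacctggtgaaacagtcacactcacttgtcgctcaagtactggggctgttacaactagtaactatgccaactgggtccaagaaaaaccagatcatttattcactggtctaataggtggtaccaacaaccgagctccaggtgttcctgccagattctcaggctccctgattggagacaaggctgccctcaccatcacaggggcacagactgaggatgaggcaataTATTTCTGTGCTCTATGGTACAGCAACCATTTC

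The motif TATTACTGT was in 55.4% of the 65 members and 42.0% of all 348 V segments, on the coding strand. TATTTCTGT was in 12.3% of the members and 12.4% of all segments. The 3 heavy segments above end 15 bases after the start of the motif, whereas the light chain segments keep 32 to 34 bases, since a light chain has no diversity segment and its V segment encodes more of the CDR3. Ighv1-26 and Ighv1-18 were 96.9% identical, with 11 differing positions over 351 bases. Iglv1 had 89.2% of its 75-base windows to itself, and the rest were shared with Iglv2.

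In the GENCODE annotation of GRCm38, Ighv1-26 lies at chr12:114788372-114788805, Ighv1-18 at chr12:114682632-114683065 and Ighv14-2 at chr12:113994469-113994898. The kappa segments lie on chromosome 6, Igkv5-39 at chr6:69900424-69900977, Igkv9-124 at chr6:67942074-67942540 and Igkv4-53 at chr6:69648824-69649363. Iglv1 lies at chr16:19085017-19085500, and all 7 are on the minus strand. Iglv1 overlaps a gene on the opposite strand (2010309G21Rik) and Ighv1-5 overlaps a microRNA gene on its own strand, so counts of these 2 members are less certain. Of all identifiers in the count tables, 4907 were missing from this annotation release, so the release used for counting was another, and coordinates may differ there.

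Reads of 75 bases can be assigned to 1 segment only where its sequence is unique. Set against all annotated transcripts, a median of 97.1% of the 75-base windows of the heavy members was unique (range 75.1% to 100%), and 89.96% in the kappa members (44.7% to 100%). Ighv1-26 was unique in 83.8% of its windows and Ighv1-55 in 75.1%. The lowest value belonged to Igkv6-20. Values of Ighv1-26, Ighv1-18, Ighv1-22 and Ighv1-34, all 96.0% identical or more, are therefore less certain than those of Ighv1-54 or Igkv5-39, whose windows were all unique.

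The amount of V segment mRNA varied more than the genotypes differed. The 29 heavy members summed to 685, 1882, 807 and 349 normalized counts in floxed 1 to 4 and to 786, 1334, 997 and 1549 in Adipoq-F2-KO 1 to 4. The 35 kappa members summed to 631, 1582, 793 and 253, and then to 602, 934, 1720 and 1425, in the same order. Floxed 2 was the highest floxed library and floxed 4 the lowest in both chains, and the genotypes overlapped.

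Means were 931 ± 663 (SD, n = 4) in floxed against 1167 ± 341 in Adipoq-F2-KO for the heavy chain, a ratio of 1.25. For kappa they were 815 ± 559 against 1170 ± 499, a ratio of 1.44. Over all segments of the chain, members or not, the ratios were 1.38 for heavy and 1.41 for kappa. These sums received no test, because the members were chosen by their level. Floxed 2 alone set much of the floxed mean: without it the floxed mean was 614 ± 237 for heavy and 559 ± 277 for kappa (n = 3), and the ratios rose to 1.90 and 2.09. In the 5 libraries of at least 10000000 counts, by contrast, the log2 ratio (Adipoq-F2-KO over floxed) was 0.13 for heavy and -0.10 for kappa, against 0.33 and 0.52 in all 8, so the direction of the kappa total was not stable. In bulk tissue, more plasma cells, more B cells of other kinds and more mRNA per cell cannot be told apart.

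**Figure D1:**
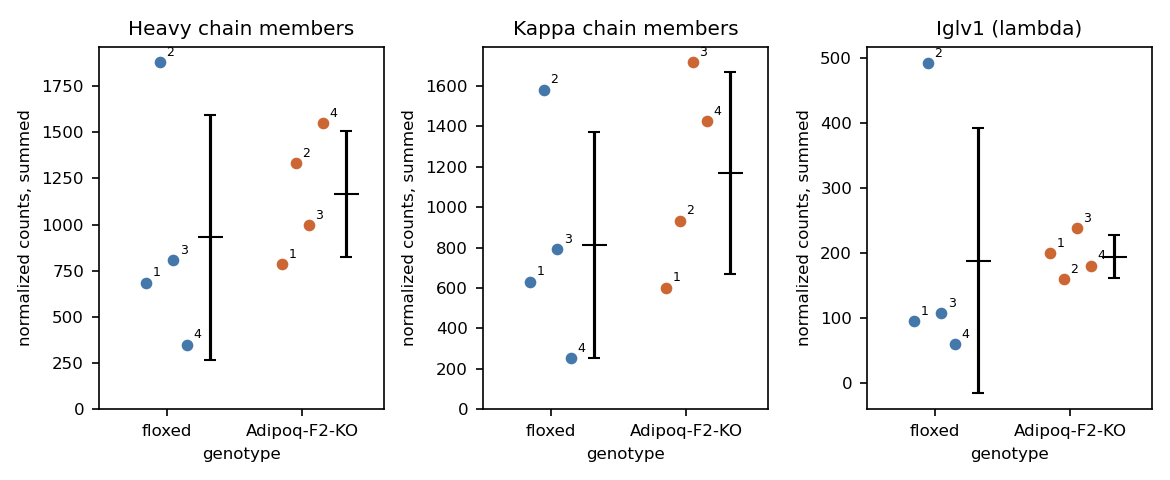
Normalized counts (y axis) summed over the 29 heavy members, the 35 kappa members and Iglv1, by genotype (x axis); each point is 1 library with its number, and the bar is the mean ± SD (n = 4). Floxed 2 stands above the other floxed libraries in each panel, at 1882, 1582 and 492, and the genotypes overlap in all 3 panels.

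V segment counts moved with the constant regions of the same chain. Heavy members received 10.5 to 16.7 counts per 100 heavy constant region counts, and kappa members 20.6 to 32.0 per 100 counts of Igkc, the kappa constant region. Means were 14.1 ± 2.00 in floxed and 14.8 ± 2.91 in Adipoq-F2-KO for heavy, and 23.9 ± 2.23 and 25.5 ± 4.82 for kappa (SD, n = 4). The range over libraries was 1.59-fold for heavy and 1.55-fold for kappa in this measure, against 5.39-fold and 6.80-fold in the normalized totals. The highest kappa value was in Adipoq-F2-KO 3. So was the lowest heavy value, and there the members held only 498 of 915 heavy V counts.

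In the heavy chain, Ighv1-26 was the most used segment. It took a mean of 13.4% of the counts of the heavy members over the 8 libraries and led the chain in 4 of them. Its share was 12.0%, 15.5%, 13.5% and 12.9% in floxed 1 to 4 and 15.6%, 5.53%, 21.7% and 10.9% in Adipoq-F2-KO 1 to 4. The 21.7% in Adipoq-F2-KO 3 was 108 of 498 member counts, in a library with 915 counts over all heavy V segments. Part of its height, and of the spread among the Adipoq-F2-KO libraries, therefore follows from the rule for members. The genotype means, 13.5% ± 1.48 and 13.4% ± 6.87 (SD, n = 4), differed by less than the spread within either genotype. Ighv1-26 was among the 3 most used heavy segments in 7 libraries and ranked sixth in Adipoq-F2-KO 2.

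Ighv1-54 ranked next by mean share, at 9.57%, and led floxed 4. Its share was 5.57%, 9.92%, 3.63% and 17.1% in floxed 1 to 4, against 13.7%, 10.4%, 4.22% and 12.1% in Adipoq-F2-KO 1 to 4. Both genotypes held a library at about 4% and a library above 13%.

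Ighv14-2 was uneven between mice of both genotypes. It received 249 of 1131 heavy counts in floxed 1, or 22.0% (95% Wilson interval 19.7% to 24.5%), and 1.82%, 11.9% and 1.33% in floxed 2, 3 and 4. In Adipoq-F2-KO 1 to 4 it took 2.51%, 1.12%, 11.8% and 6.19%. Both genotypes thus held libraries near 1% and near or above 12%. Over all 8 libraries its rank ran from first to 22nd of 29.

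Of the remaining leading heavy segments, Ighv6-3 took 3.09% to 7.37% in floxed, and 4.60% to 7.13% in Adipoq-F2-KO 1, 2 and 4, but had no count in Adipoq-F2-KO 3. With 498 counts over the heavy members in that library, a count of 0 allows a share of up to 0.602% (counting error only). Ighv1-5 took 2.33% to 4.88% in floxed and 5.82% to 12.4% in Adipoq-F2-KO libraries, where it led Adipoq-F2-KO 4. Ighv1-55 took 1.88% to 5.54% in floxed and 2.55% to 7.43% in Adipoq-F2-KO. Ighv8-12 led Adipoq-F2-KO 2 with 251 of 2152 counts, 11.7% (10.4% to 13.1%), and held at most 4.92% in any other library.

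**Figure D2:**
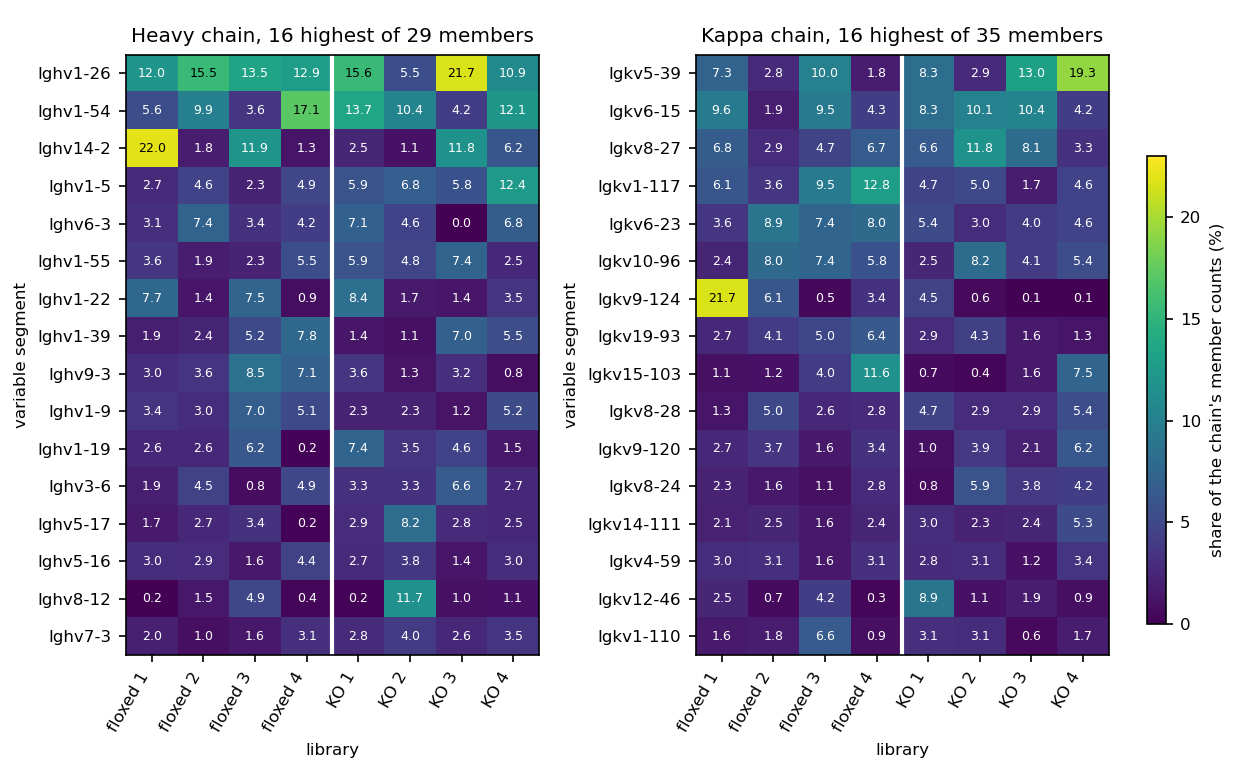
Share of the member counts of the chain (color and printed value, percent) for the 16 heavy and 16 kappa segments with the highest mean share (y axis) in each library (x axis; the white line separates the floxed from the Adipoq-F2-KO libraries, labelled KO). The most used segment changes from library to library within both genotypes, as with Ighv14-2 at 22.0% and Igkv9-124 at 21.7% in floxed 1.

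In the kappa chain no segment led as steadily. Igkv5-39 had the highest mean share, 8.18%, and led floxed 3 and Adipoq-F2-KO 4. It took 7.29%, 2.83%, 10.0% and 1.83% in floxed 1 to 4 and 8.27%, 2.86%, 13.04% and 19.3% in Adipoq-F2-KO 1 to 4. Its value in Adipoq-F2-KO 4 rested on 146 of 758 counts (16.6% to 22.2%, Wilson). Each genotype held libraries under 3% and at or over 10%.

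Igkv6-15 led no library but was among the 3 most used kappa segments in 5 of them. Its share was 9.60%, 1.90%, 9.50% and 4.28% in floxed 1 to 4, against 8.27%, 10.1%, 10.4% and 4.22% in Adipoq-F2-KO 1 to 4. Igkv8-27 had a mean share of 6.37% and led Adipoq-F2-KO 2 at 11.8%. Igkv1-117 led floxed 4 at 12.8% (9.64% to 16.9%) and was at 1.75% to 5.05% in the Adipoq-F2-KO libraries. Igkv6-23 led floxed 2 at 8.86% and Igkv10-96 ranged from 2.40% to 8.17%.

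Igkv9-124 was the kappa counterpart of Ighv14-2 in floxed 1. It took 226 of 1042 kappa counts there, 21.7% (19.3% to 24.3%), then 6.13%, 0.528% and 3.36% in floxed 2 to 4. In Adipoq-F2-KO 1 to 4 it took 4.46%, 0.598%, 0.116% and 0.132%. Igkv9-120, which is 95.2% identical to it, took 2.69% in floxed 1. Whether the Ighv14-2 and Igkv9-124 counts of floxed 1 come from the same cells cannot be told from bulk counts.

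Igkv12-89 showed the sharpest single-library peak. It received 128 of 859 kappa counts in Adipoq-F2-KO 3, 14.9% (12.7% to 17.4%), and led that library. In the other 7 libraries it had 0 to 6 counts. It was therefore not among the segments tested between genotypes, which had to reach 10 counts in 4 or more libraries.

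In the lambda chain Iglv1 was the only member and received 157, 934, 51 and 76 counts in floxed 1 to 4 and 253, 257, 119 and 96 in Adipoq-F2-KO 1 to 4. Iglv2, a non-member, received 0 to 21 counts per library and Iglv3 none. Iglv1 made up 97.3% of all lambda V counts. In normalized counts it was at 95.1, 492, 107 and 58.8, and then at 199.7, 159, 238 and 180, in the same order. Floxed 1, 3 and 4 lay below all 4 Adipoq-F2-KO libraries and floxed 2 lay above them.

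The part of the light chain V counts that was lambda ran from 11.2% to 24.9%. It was 13.1%, 23.7%, 11.9% and 18.9% in floxed 1 to 4 and 24.9%, 14.6%, 12.2% and 11.2% in Adipoq-F2-KO 1 to 4. The same fraction taken from the constant regions (Iglc1 to Iglc4 against Igkc) was 8.33%, 13.8%, 8.61% and 13.3% and then 15.4%, 9.84%, 7.64% and 11.6%. Adipoq-F2-KO 1 and floxed 2 had the 2 highest values by both measures. The genotypes overlapped over nearly the whole range by either measure.

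Many segments were concentrated in a single mouse. For 14 of the 65 members, over 50% of the normalized counts of the 8 libraries came from 1 library, where an even spread would give 12.5% each. Of these 14, 8 peaked in floxed 2, 3 in Adipoq-F2-KO 2, 2 in Adipoq-F2-KO 4 and 1 in Adipoq-F2-KO 3. Floxed 2 held the highest normalized count of 25 of the 65 members and floxed 4 of none. A segment can pass the threshold of 100 counts through a single deep or immunoglobulin-rich library, so these counts partly follow from the rule.

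The most concentrated were Igkv12-89 with 94.7% in Adipoq-F2-KO 3 and Ighv1-42 with 83.8% in floxed 2. Ighv1-42 had 251 counts in floxed 2 and 0 to 11 in every other library. Igkv4-68 had 73.5% and Igkv4-57 68.5% of their normalized counts in floxed 2. Igkv4-61 had 70.1% in Adipoq-F2-KO 2. At the even end, Ighv1-19 and Igkv1-117 held 20.0% and 20.1% in their highest library.

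**Figure D3:**
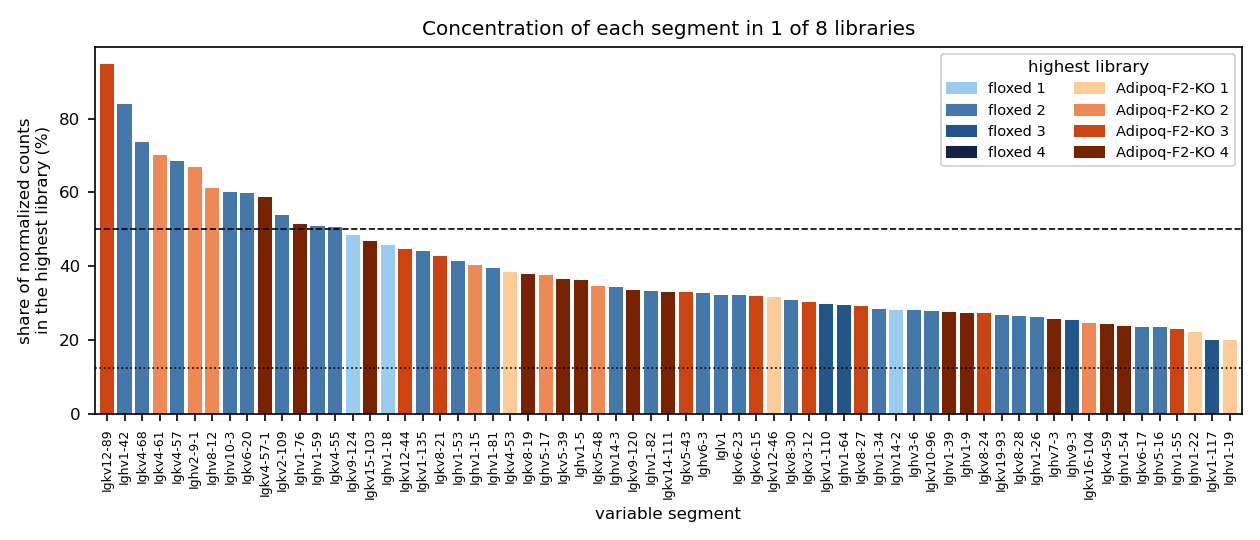
Percent of the normalized counts of each of the 65 segments that came from its highest library (y axis), with the segments in falling order (x axis) and the color giving that library; the dashed line is at 50% and the dotted line at an even spread of 12.5%. Igkv12-89 reaches 94.7% and 14 segments pass the dashed line.

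Around these peaks stood a smaller shared set. In every library, 8 heavy and 12 kappa members held at least 1% of their chain. The heavy set was Ighv1-26, Ighv1-54, Ighv14-2, Ighv1-5, Ighv1-55, Ighv1-39, Ighv1-9 and Ighv5-16. The kappa set was Igkv5-39, Igkv6-15, Igkv8-27, Igkv1-117, Igkv6-23, Igkv10-96, Igkv19-93, Igkv8-28, Igkv9-120, Igkv14-111, Igkv4-59 and Igkv16-104. In all, 52 of the 65 members were counted in all 8 libraries. By contrast, 20 heavy and 24 kappa members reached 5% of their chain in at least 1 library, and no segment of either chain was among the 5 most used in all 8.

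The spread between mice of 1 genotype was larger for V segments than for other genes at like levels. Over the 50 tested members the median coefficient of variation of normalized counts was 89.1% among the floxed and 61.2% among the Adipoq-F2-KO libraries. For 9044 other genes in the same range of mean normalized count it was 24.2% and 24.0%. Shares of a chain do not hold the chain's total. Over the same 23 tested heavy members the median among the floxed libraries was 91.2% for normalized counts and 65.9% for shares, and among the Adipoq-F2-KO libraries 63.9% and 61.9%. For the 26 tested kappa members it was 83.1% and 50.8% among the floxed and 61.2% and 57.6% among the Adipoq-F2-KO libraries. The shares were thus less variable than the counts mainly in floxed.

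Usage differed between mice of 1 genotype by about as much as between genotypes. The percent of heavy usage that would have to move to turn 1 library into another had a median of 42.4% over the 6 floxed pairs, 36.9% over the 6 Adipoq-F2-KO pairs and 38.2% over the 16 pairs between genotypes. For kappa the medians were 39.0%, 40.4% and 40.5%. Single pairs ranged from 27.3% to 53.1% for heavy and from 31.9% to 53.7% for kappa. These values are a description, since each library enters several pairs.

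Evenness overlapped between the genotypes. The effective number of segments (the inverse Simpson index, the number of equally used segments that would give the same concentration) was 11.04, 15.5, 14.3 and 12.7 for heavy in floxed 1 to 4 and 13.1, 16.7, 11.2 and 14.8 in Adipoq-F2-KO 1 to 4. For kappa it was 12.3, 21.9, 17.3 and 16.3 and then 18.5, 16.8, 14.1 and 14.01. Means were 13.4 ± 1.93 and 13.9 ± 2.38 for heavy and 17.0 ± 3.93 and 15.8 ± 2.18 for kappa (SD, n = 4). The order of the heavy libraries depended on the rule for members. With all heavy segments counted, the effective number was 17.1 to 21.6 in floxed and 17.2 to 23.5 in Adipoq-F2-KO. Adipoq-F2-KO 3 then had the highest value of all libraries, in place of the lowest among Adipoq-F2-KO. The lowest value of both chains among the floxed libraries was in floxed 1, where Ighv14-2 and Igkv9-124 peaked. The 5 most used segments held 42.8% to 55.7% of heavy and 36.1% to 51.7% of kappa counts.

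By family, Ighv1, the largest heavy family, gave 18 of the 29 heavy members and 54.2% to 73.6% of their counts. Ighv14 ran from 2.00% to 25.2%, with Ighv14-2 leading it in floxed 1. Among kappa families Igkv8 took 13.2% to 23.1%, Igkv6 10.8% to 18.2% and Igkv4 6.05% to 23.1%. Igkv9 reached 24.4% in floxed 1 and Igkv12 22.0% in Adipoq-F2-KO 3. The extremes of Ighv14, Igkv9 and Igkv12 were thus made up mostly of Ighv14-2, Igkv9-124 and Igkv12-89.

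The position of the segments in their locus was compared by splitting each locus at the midpoint between its nearest and farthest V segment from the joining segments. The nearer section held 17 of 29 heavy and 23 of 35 kappa members. In the kappa chain it took 56.2%, 62.3%, 60.2% and 49.8% of the member counts in floxed 1 to 4 and 74.7%, 67.2%, 68.2% and 65.3% in Adipoq-F2-KO 1 to 4. The 4 Adipoq-F2-KO libraries were thus all above the 4 floxed libraries, with means of 68.8% ± 4.07 and 57.1% ± 5.46 (SD, n = 4). With all kappa segments counted, the lowest Adipoq-F2-KO value was 63.8% and the highest floxed value 62.7%.

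This separation rested on 2 segments, 1 in each section. Without Igkv9-124, in the farther section, floxed 1 rose to 71.8% and the genotypes overlapped, with means of 62.5% ± 8.65 and 69.9% ± 5.67. Without Igkv5-39, in the nearer section, Adipoq-F2-KO 4 fell to 57.0% and they overlapped again. Leaving out any other single kappa member kept the genotypes apart. No test was made on this sum over the members, and it was singled out after its values were seen. In the heavy chain the nearer section took 60.5% to 81.0% in floxed and 60.1% to 71.1% in Adipoq-F2-KO libraries.

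**Figure D4:**
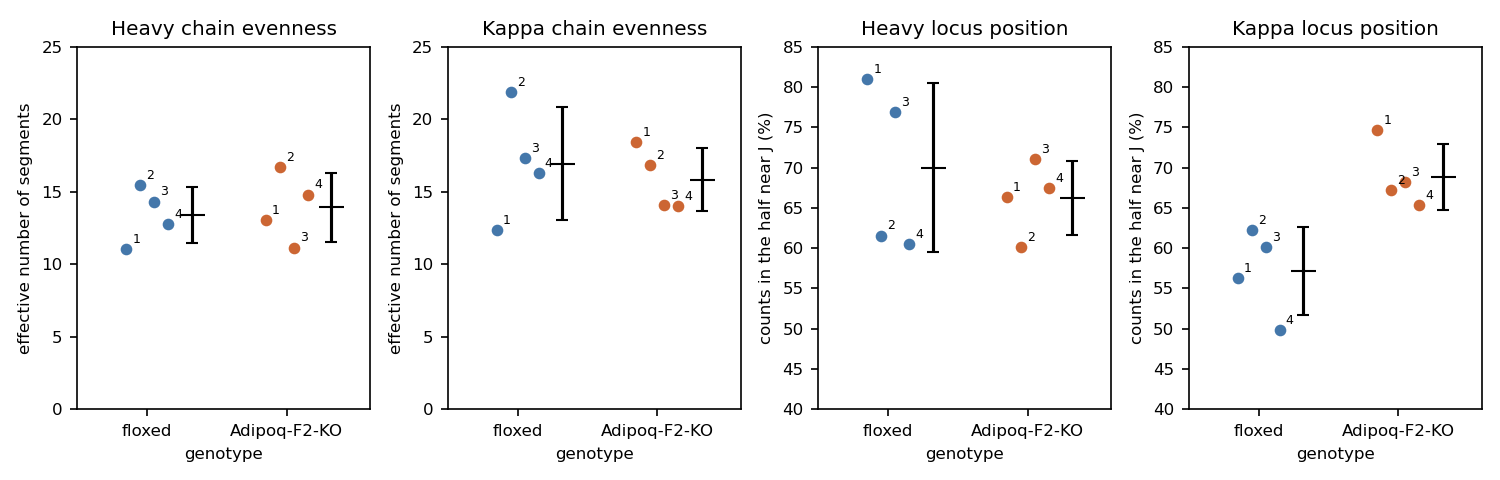
Effective number of segments of the heavy and kappa chains (2 left panels) and percent of member counts from segments nearer the joining (J) segments in the heavy and kappa loci (2 right panels, axis from 40% to 85%), by genotype (x axis); each point is 1 library with its number, and the bar is the mean ± SD (n = 4). Only the kappa position panel shows no overlap, with floxed at 49.8% to 62.3% and Adipoq-F2-KO at 65.3% to 74.7%, whereas without Igkv9-124 or Igkv5-39 the genotypes overlap there too.

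Whether single segments differed between genotypes was tested with DESeq2 over all 15986 genes that reached 10 counts in 4 or more libraries. Of the 65 members 50 were tested (23 heavy, 26 kappa, 1 lambda), and none had a Benjamini-Hochberg adjusted p below 0.05, against 0.0375% of all genes tested (6 genes). At an unadjusted p below 0.05 there were 10 of 50 members (20.0%), against a background of 3.03%. Of these, 7 were higher in Adipoq-F2-KO (background 1.65%) and 3 lower (background 1.38%). Members of a chain share cells and libraries, so the 10 are not independent of each other. Of the 10, 6 reached the 100 counts that define a member in 1 genotype alone, the one in which they were higher, and their differences partly follow from that threshold. The other 4 (Ighv1-5, Ighv1-55, Igkv6-15 and Igkv8-27) reached it in both. edgeR and limma-voom also called no member at an adjusted p below 0.05, with 7 and 6 members at an unadjusted p below 0.05 (3.48% and 4.30% of all genes in those fits).

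The median log2 fold change (Adipoq-F2-KO over floxed) of the 50 tested members was 0.30, against -0.01 over all genes tested. It was 0.17 for heavy and 0.68 for kappa members, with 36 of 50 above 0 (7753 of all 15986 genes). It turned to -0.14 in the 5 libraries of at least 10000000 counts, and fell to 0.03 without floxed 4 and to 0.08 without Adipoq-F2-KO 4. Without floxed 2 the median rose to 1.08, with 18 members higher and 1 lower at an unadjusted p below 0.05 (2.93% of all genes in that fit) and 3 (Iglv1, Igkv4-53 and Ighv1-5) past the adjusted threshold, of 21 genes in all. Only 27 of the 65 members reached 100 counts within each genotype alone (40 in floxed, 36 in Adipoq-F2-KO), so counts of segments by direction partly reflect which libraries brought them over the threshold.

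The smallest p belonged to Igkv4-53. It was at 1.21, 5.80, 4.18 and 1.55 normalized counts in floxed 1 to 4 and at 53.7, 22.9, 48.1 and 1.88 in Adipoq-F2-KO 1 to 4. Adipoq-F2-KO 1, 2 and 3 were above all floxed libraries, and Adipoq-F2-KO 4 lay within the floxed range. In Adipoq-F2-KO 1 it shared the lead of the kappa chain with Igkv12-46, at 8.92% each. Its raw counts were 17 over the floxed and 130 over the Adipoq-F2-KO libraries, so it became a member only through the genotype in which it was high. The log2 fold change was 3.34 ± 0.83 (SE; DESeq2, unadjusted p = 5.6e-05, adjusted p = 0.0999). Over the alternatives that gave one, the adjusted p ran from 0.000105, without Adipoq-F2-KO 4, to 0.999. Of its 75-base windows 80.6% were unique, and the rest were shared with Igkv4-54 and Igkv4-60.

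For 2 heavy members all 4 Adipoq-F2-KO libraries lay above all 4 floxed libraries, 4.00% of the 50 tested against a background of 1.1%. For none did they all lie below (background 1.02%, and 2.12% for either direction). Ighv1-55 was at 24.8, 35.3, 18.8 and 19.3 normalized counts in floxed 1 to 4 and at 46.6, 63.9, 74.1 and 39.5 in Adipoq-F2-KO 1 to 4 (log2 fold change 1.14 ± 0.33, DESeq2 adjusted p = 0.459). Ighv7-3 was at 13.9, 18.4, 12.5 and 10.8 and then at 22.1, 53.3, 26.0 and 54.5 (1.46 ± 0.43, DESeq2 adjusted p = 0.470). Both were higher in every Adipoq-F2-KO library, by less than the test over all genes required. Ighv7-3, with raw counts of 78 over the floxed and 156 over the Adipoq-F2-KO libraries, became a member only through the genotype in which it was high, so its separation partly follows from the threshold. Neither passed an adjusted p of 0.05 under any of the alternatives that gave a value.

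Ighv1-5 was at 18.8, 86.4, 18.8 and 17.0 normalized counts in floxed 1 to 4, against 46.6, 91.1, 58.1 and 192 in Adipoq-F2-KO 1 to 4. Floxed 2 alone overlapped with the Adipoq-F2-KO range. The log2 fold change was 1.43 ± 0.59 with all libraries (DESeq2 adjusted p = 1.00) and 2.40 without floxed 2 (adjusted p = 0.00353). Its share of heavy counts, which the total of the library does not enter, was higher in all 4 Adipoq-F2-KO libraries, with means of 3.64% ± 1.29 and 7.74% ± 3.13 (SD, n = 4). Over all 65 members the shares of 2 (Ighv1-5 and Ighv1-76) lay wholly above the floxed range in Adipoq-F2-KO and those of 1 (Igkv4-68) wholly below it. These 3 are 4.62% of the members, against 2.12% of all genes tested whose normalized counts did not overlap, and nothing is read from this: Igkv4-68 reached 100 counts in floxed alone, Ighv1-76 in neither genotype alone, and neither was among the 50 tested.

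Among kappa members, Igkv8-27 (1.21 ± 0.45), Igkv8-24 (1.70 ± 0.67) and Igkv6-15 (1.13 ± 0.54) were higher at an unadjusted p below 0.05, with DESeq2 adjusted p = 1.00 for each. Igkv8-24 was at 14.5, 25.3, 8.36 and 6.97 normalized counts in floxed 1 to 4 and at 4.74, 55.2, 66.1 and 60.2 in Adipoq-F2-KO 1 to 4. Adipoq-F2-KO 1 was the lowest of all 8 libraries for it, and without that library its adjusted p was 0.0464. With raw counts of 85 over the floxed and 160 over the Adipoq-F2-KO libraries it too reached the 100 counts of a member in Adipoq-F2-KO alone.

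On the lower side were Igkv9-124 (-2.73 ± 1.29), Ighv10-3 (-2.70 ± 1.32) and Ighv9-3 (-0.99 ± 0.49), with DESeq2 adjusted p = 1.00 for each. With the replicate number as a block, the DESeq2 adjusted p of Igkv9-124 was 0.0343, although the numbers were not taken to pair the mice. Raw counts were 423 over the floxed and 45 over the Adipoq-F2-KO libraries for Igkv9-124, 240 and 17 for Ighv10-3 and 226 and 86 for Ighv9-3, so all 3 became members only through floxed, where they were high. The first rested on floxed 1 and floxed 2, at 137 and 97.0 normalized counts against 1.88 to 26.8 in the other 6 libraries. Ighv10-3 rested largely on floxed 2, with 109 normalized counts there against 1.21, 35.5 and 10.8 in floxed 1, 3 and 4 and 1.86 to 18.8 in Adipoq-F2-KO. When each library was left out in turn, the log2 fold change ran from -4.21 to -1.97 for Igkv9-124 and from -4.24 to -1.37 for Ighv10-3. DESeq2 gave no p for Iglv1 (log2 fold change 0.04 ± 0.69) and Ighv1-53 (0.09 ± 1.39), where 1 library had an outlying count.

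**Figure D5:**
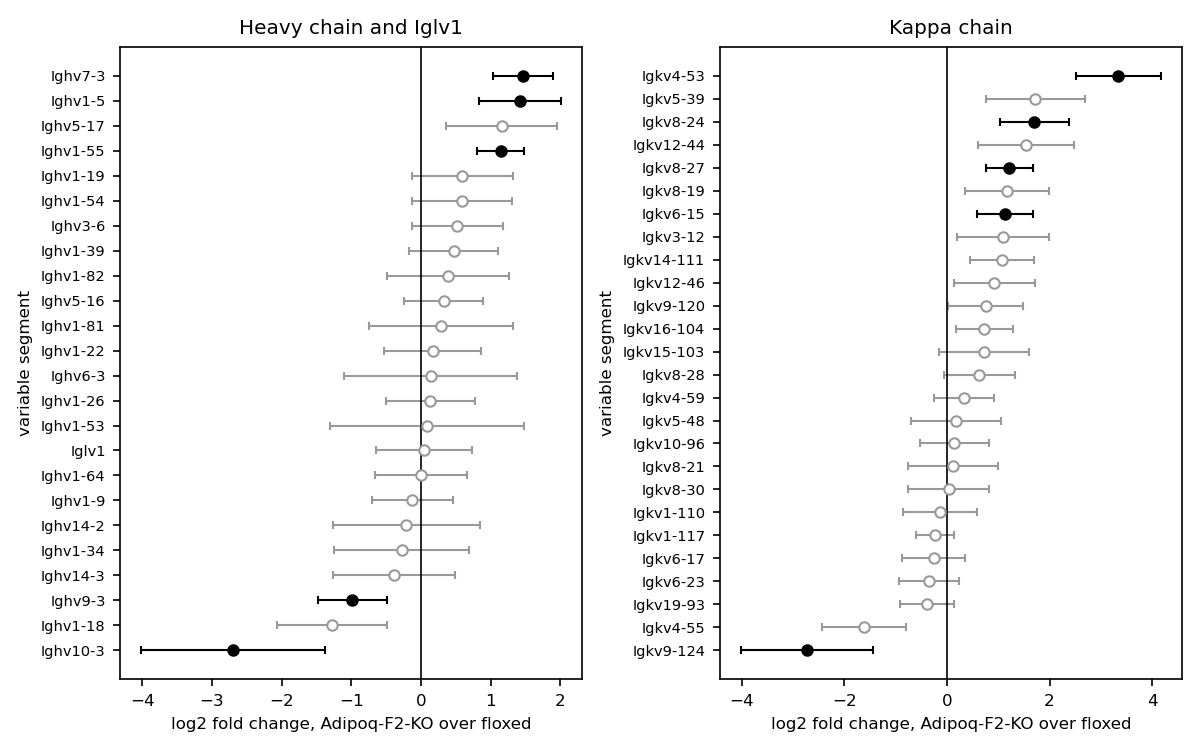
Log2 fold change of Adipoq-F2-KO over floxed from DESeq2 (x axis) for the 23 tested heavy members with Iglv1 and the 26 tested kappa members (y axis, in order of fold change); bars are ± 1 SE, and filled points have an unadjusted p below 0.05. Igkv4-53 lies farthest right at 3.34 and Igkv9-124 farthest left at -2.73, and no segment passed the adjusted threshold.

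At the threshold of 100 counts, Igkv4-57-1, Igkv6-20 and Ighv1-76 lay just inside with 102 counts each. Igkv6-32 (98), Ighv2-3 (95) and Igkv4-91 (92) lay just outside. Of the 3 inside, Igkv6-20 owed 80 counts to floxed 2, and Ighv1-76 owed 36 to Adipoq-F2-KO 2 and 29 to Adipoq-F2-KO 4. None of the 3 had 10 counts in 4 libraries, so none was tested. Over all libraries the members held 81.6% of heavy, 83.9% of kappa and 97.3% of lambda V counts, and no member is annotated as a pseudogene. The heavy part was lowest in Adipoq-F2-KO 3, with 498 of 915 counts in members, and next lowest in floxed 1, with 1131 of 1439. Heavy shares in Adipoq-F2-KO 3 thus leave out more of the chain than those in the other libraries.

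The other genes of the antibody system gave the setting. The 9 tested constant region genes had a median log2 fold change of 0.73, all above 0, and none passed an adjusted or unadjusted p of 0.05 (background 3.03%). Igha, the constant region of immunoglobulin A, was at 5821, 13456, 4776 and 2267 normalized counts in floxed 1 to 4 and 4519, 7940, 9256 and 8861 in Adipoq-F2-KO 1 to 4. Like the heavy V segments it was highest in floxed 2 and lowest in floxed 4. Jchain, which joins immunoglobulin A into dimers, had a log2 fold change of 0.32 ± 0.59 (DESeq2 adjusted p = 1.00).

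Of the 16 plasma cell secretion genes 14 were tested, with a median log2 fold change of 0.13 and none at an unadjusted p below 0.05. Their sum, which epithelial Pigr dominates, ranged from 60607 to 72919 normalized counts in floxed and from 56552 to 69591 in Adipoq-F2-KO libraries. Mzb1, a chaperone of plasma cells, had at most 3 counts in any library although Jchain had 463 to 4882.

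B cells other than plasma cells also differed between scrapings. The 16 naive and follicular B cell genes summed to 93.3, 794, 305 and 92.9 normalized counts in floxed 1 to 4 and 349, 1122, 410 and 833 in Adipoq-F2-KO 1 to 4. All 14 tested had a log2 fold change above 0 (median 1.04) and none an adjusted or unadjusted p below 0.05. Ms4a1, a surface protein of B cells, had 2 to 148 counts. The part of these cells in the V segment totals was not tested.

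The remaining lists gave no adjusted call. Median log2 fold changes were 0.03 for 7 tested germinal centre genes, -0.05 for 4 of the follicle stroma and follicle-associated epithelium, 0.65 for 3 octamer-binding factors (which act on immunoglobulin promoters), 0.29 for 13 T cell, 0.61 for 9 macrophage, -0.01 for 12 enterocyte and -0.94 for 10 smooth muscle genes. Over these 7 lists 2 genes had an unadjusted p below 0.05, 1 of 13 T cell and 1 of 9 macrophage genes. Both were higher in Adipoq-F2-KO (background 1.65%, and 3.03% for either direction), and nothing is read from this.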

How the data were processed

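RNA from jejunal mucosal scrapings of 4 floxed and 4 Adipoq-F2-KO mice was sequenced as poly-A selected stranded libraries with single-end 75-base reads. The authors trimmed reads with Trimmomatic, aligned them with STAR to the mouse genome (GRCm38/mm10 per the labels) and made the deposited gene counts with featureCounts; versions, strand setting, annotation release and the handling of reads that match several genes are not given in the sources used here. Reads that cross into the joined region or carry hypermutations may be lost, which was not tested.

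Identifiers were matched to symbols for 52073 of 56980 genes. Shares are the counts of a segment over those of all members of its chain. Genotypes were compared with the DESeq2 (version 1.42.0) Wald test without covariates, on genes with 10 counts or more in 4 libraries or more, adjusted by Benjamini-Hochberg over all of them; the fit was tested on simulated data. Alternatives were edgeR (4.0.16), limma-voom (3.58.1), TMM scaling, no filter, no Cook's distance filter, a replicate block, deeper libraries and leaving out each library. Intervals are 95% Wilson intervals and cover counting error only. The members and gene lists were chosen with earlier results of these data known. Named segments were those with the highest mean shares, the leader of each library, the smallest p, the strongest concentration and the nearest to 100 counts; Ighv9-3, the families, Ighv1-18, Ighv1-53 and segments named for a shared sequence or set were added after their values were seen. Sequences and positions are from GENCODE M21. Values of some listed genes are not reported here.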

Additional observations from a re-analysis of the deposited data

Results flagged for a closer look

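In 10 of 60 groups of 4 libraries, 1 library stood so far from the rest that its gap to the nearest other library, divided by the range of the group, was above Dixon's 95% critical value. Chance gives about 1 such group in 20 for values not chosen by their spread. That rate does not hold here, since 8 of the 9 segments in these groups were named for leading a library or for their concentration in 1, and groups that share a library are not independent. The values are therefore a description. Among the floxed libraries, floxed 2 stood above the rest for the lambda total (492 normalized counts against 58.8 to 107) and for the share of Ighv1-42 (7.03% of heavy counts against 0% to 0.973%).

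Among the Adipoq-F2-KO libraries, the share of Ighv8-12 reached 11.7% in Adipoq-F2-KO 2 against at most 1.09% in the others, and Igkv4-61 reached 9.30% there against at most 1.31%. In Adipoq-F2-KO 3, Igkv12-89 reached 14.9% against at most 0.131%, and Igkv1-117 was low at 1.75% against 4.62% to 5.05%. Igkv12-46 and Igkv9-124 were high in Adipoq-F2-KO 1, at 8.92% against 0.923% to 1.86% and at 4.46% against 0.116% to 0.598%. Ighv1-5 and Ighv10-3 were high in Adipoq-F2-KO 4, at 12.4% against 5.82% to 6.83% and at 1.21% against 0.139% to 0.301%.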

How the results depend on the processing

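The number of V segments past an adjusted p of 0.05, 0 with all libraries, was 1 in the 5 libraries of at least 10000000 counts (Igkv4-53, of 77 genes in all, against 6 with all libraries) and ran from 0 to 3 when each library was left out in turn, with 3 without floxed 2 (of 21 genes), 1 without Adipoq-F2-KO 1 (Igkv8-24, of 5 genes), 1 without Adipoq-F2-KO 4 (Igkv4-53, of 3 genes) and 0 without floxed 3, where 104 genes passed. The number past an unadjusted p of 0.05, 10 with all libraries, was 6 with limma-voom (4.30% of all genes in that fit), 6 in the deeper libraries (5.40%, against 3.03% with all libraries), and 6 (without Adipoq-F2-KO 3, 2.78%) to 19 (without floxed 2, 2.93% of all genes) over the libraries left out. The log2 ratio of the lambda totals, 0.05, ran from -0.25 (without floxed 4) to 1.16 (without floxed 2), those of heavy (0.33) from 0.05 to 0.93 and of kappa (0.52) from 0.22 to 1.07; in the deeper libraries they were -0.26, 0.13 and -0.10, so the lambda and kappa ratios changed sign there. The log2 fold change of Iglv1, 0.04, was -0.0057 with edgeR, -0.27 in the deeper libraries and between -0.25 and 1.18 over the libraries left out. The cause of these shifts was not tested.

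The labels number the mice 1 to 4 in both genotypes, and the deviations of same-numbered libraries over genes correlated at 0.54 and 0.29 for numbers 1 and 2 but 0.01 and -0.42 for numbers 3 and 4, where the Adipoq-F2-KO library correlated best with a floxed library of another number. The numbers were therefore not taken to pair the mice. With the number as a replicate block, 1 V segment (Igkv9-124) passed an adjusted p of 0.05, of 11 genes in all. Counts of 20586 over 65 segments limit what can be said of the rarer ones, and 15 members could not be tested.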
